A study of Mus musculus with 6 samples.

Results

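The genes described here fold, modify, translocate and degrade proteins of the endoplasmic reticulum (ER), or sense stress in it. They are 39 named genes in 8 roles, namely chaperones and co-chaperones, lectin chaperones, disulfide isomerases, stress sensors with the transcription factor Xbp1, ER-associated degradation, the SEC61 channel, the TRAP complex and signal peptidase. All 39 were found by symbol among the 31273 genes of the table, and 38 passed the filter of a mean of at least 1 TPM. TPM is a length-corrected share of all transcripts of a library. Derl3, a derlin of ER-associated degradation, did not pass and stood between 0 and 0.107 TPM in control and between 0.23 and 0.515 TPM in overexpression libraries.

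Left ventricles of mice were compared in 6 libraries, 3 labelled control and 3 labelled as overexpressing the splicing regulator RBM20 in cardiomyocytes. In the series text the knock-in of RBM20 is switched on by tamoxifen and limited to cardiomyocytes. Details not given in the sources used here are the promoter of the recombinase, the age of the mice and whether controls received tamoxifen. Rbm20 stood at 74.9, 90.9 and 79.5 TPM in control replicates 1 to 3 and at 321, 913 and 907 TPM in overexpression replicates 1 to 3. Esr1, which encodes the estrogen receptor, was at most 0.415 TPM in control and at least 52.98 TPM in overexpression libraries. Gene totals cannot tell RNA of the mouse's own Esr1 from RNA of a construct that holds Esr1 sequence. Sample titles carry cki for control and cre for overexpression libraries, and groups follow the genotype labels. If cre marks the recombinase, its effect and that of RBM20 cannot be told apart here.

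Facts of the libraries that touch all values below are these. Depth was estimated at 41500000 to 70200000 reads in control and 50900000 to 89700000 in overexpression libraries. Mitochondrially encoded RNA took 48.3% to 52.0% of the TPM in control and 36.7% to 41.0% in overexpression libraries. TPM of a library share a fixed total, and the middle one of the 12404 tested genes had a log2 difference of 0.55 in deposited TPM and 0.01 once libraries were rescaled by median of ratios. Each gene is read against that value, and both scalings are given. Of the 10 ventricular cardiomyocyte markers 4 were lower and 2 higher in deposited TPM, and 8 were lower and 0 higher after rescaling. Their summed level overlapped in TPM (control 47146 to 53960, overexpression 45737 to 50540.3) and did not after rescaling (60279 to 68097 and 34285 to 43396). In bulk tissue, fewer cells of a type and less RNA per cell cannot be told apart.

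The ER is where secreted and membrane proteins enter through the SEC61 channel, lose their signal peptide, receive sugars and disulfide bonds, and fold on chaperones. When unfolded proteins build up, the sensors IRE1 (Ern1), PERK (Eif2ak3) and ATF6 start the unfolded protein response. IRE1 removes a short intron from Xbp1 RNA, PERK slows translation and raises ATF4, and ATF6 is cut to a transcription factor. In cardiomyocytes the same compartment is continuous with the sarcoplasmic reticulum that stores calcium, which calreticulin and other chaperones bind.

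Many of these genes share a promoter element, the ER stress response element (ERSE, CCAAT and CCACG with 9 bases between them), which ATF6 and XBP1 are known to bind with the factor NF-Y. RefSeq promoters of 300 bases (250 before to 50 after the start, GRCm38.p6) were found for 32 of the 39 genes. ERSE was present on either strand in 9 of these 32 genes, against 37 of 27025 genes (0.137%) with any promoter in the table and 0.119% of the 32851 promoters. ERSE-II (ATTGG and CCACG with 1 base between them) was present in Herpud1 and Dnajb11, against 0.0444% of genes and 0.0365% of promoters. UPRE (TGACGTGG) and the element bound by ATF4 (TGATGNAAT) were in 0 of the 32, against 0.714% and 1.08% of genes, or 0.676% and 0.965% of promoters. Derl3 also held ERSE, and the match of Dnajb11 lay after its start. No match overlapped another in these promoters. The 9 stretches below are shown because they carry the exact element in genes whose levels went different ways in the ventricle. Starts are those of RefSeq. GENCODE M21 begins Hspa5 earlier, at 34771970, so the stretch of Hspa5 lies before the RefSeq start and inside the GENCODE gene. The stretches run 5′ to 3′ on the strand of the gene, and capitals mark the fixed letters of ERSE or ERSE-II, read forward or as the reverse complement.

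Hspa5, chr2:34772020-34772048, plus strand, 46 bases before the start: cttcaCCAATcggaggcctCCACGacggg
Hsp90b1, chr10:86705523-86705666, minus strand, 193 and 88 bases before: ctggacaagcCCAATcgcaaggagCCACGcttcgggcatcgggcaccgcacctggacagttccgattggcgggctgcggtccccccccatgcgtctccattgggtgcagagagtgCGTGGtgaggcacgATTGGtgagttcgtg
Calr, chr8:84847065-84847103, minus strand, 143 bases before: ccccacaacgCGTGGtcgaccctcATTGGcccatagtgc
Canx, chr11:50325790-50325828, minus strand, 126 bases before: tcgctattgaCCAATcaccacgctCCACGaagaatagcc
Creld2, chr15:88819510-88819548, plus strand, 107 bases before: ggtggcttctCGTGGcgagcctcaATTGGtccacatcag
Pdia6, chr12:17266481-17266519, plus strand, 79 bases before: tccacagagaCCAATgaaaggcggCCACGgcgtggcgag
Dnajc3, chr14:118937817-118937855, plus strand, 86 bases before: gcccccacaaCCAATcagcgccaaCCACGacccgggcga
Syvn1, chr19:6046522-6046560, plus strand, 25 bases before: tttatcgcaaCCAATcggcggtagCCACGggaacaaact
Herpud1 (ERSE-II), chr8:94386367-94386397, plus strand, 41 bases before: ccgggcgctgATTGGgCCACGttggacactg

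In overexpression ventricles most ER genes were higher in deposited TPM, and fewer were called once the shift of the middle gene was removed. In deposited TPM 35 of the 38 tested genes were called higher, where 59.0% of all tested genes were, and 1 was called lower, where 9.09% of all were (limma, adjusted p under 0.05). After rescaling 16 were higher, against 22.2% of all genes, 3 were lower, against 24.0%, and 19 were not called. The 16 were also higher in deposited TPM. Over the 38 genes the median log2 difference came to 0.85 in TPM and to 0.29 when rescaled, beside 0.55 and 0.01 over all genes. In deposited TPM the overexpression libraries lay above all control libraries for 35 of the 38 (62.1% of all genes) and below for 1 (10.4% of all genes). After rescaling they lay above for 22 (28.2% of all genes) and below for 3 (28.8% of all genes). Without control replicate 2 the count of 16 fell to 10, beside 2164 of all 12489 genes tested. Without another single library it was 13 to 17, beside 2007 to 2647 of all genes tested.

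**Figure D1:**
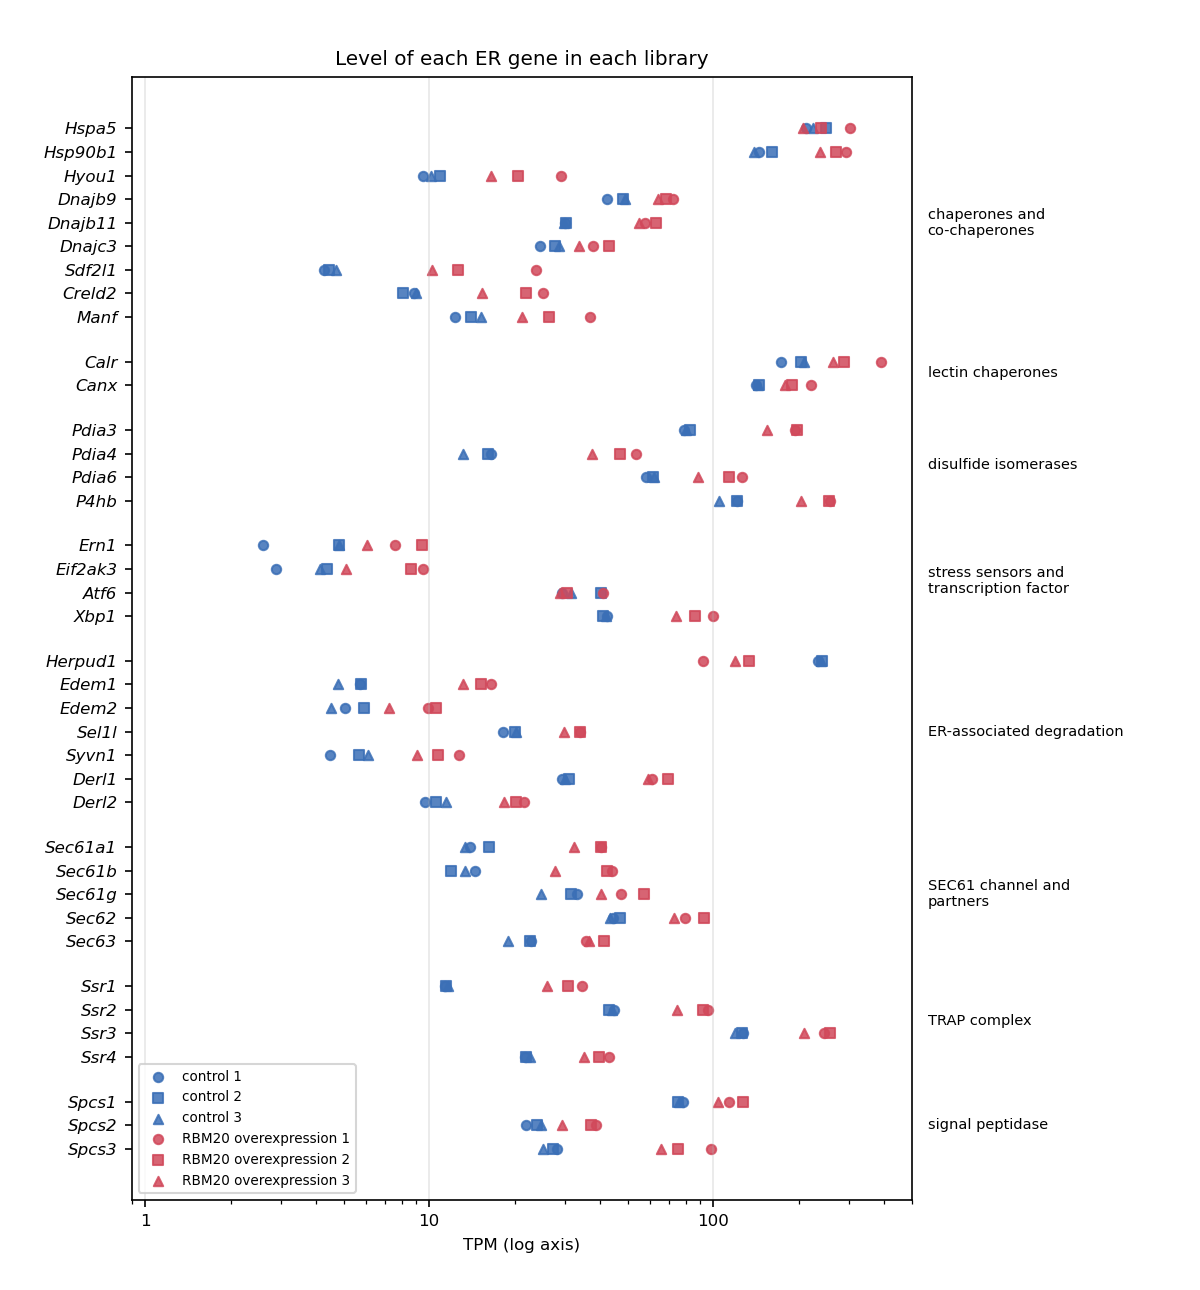
Level of each of the 38 tested ER genes in each library, in TPM on a log axis, with control libraries in blue, RBM20 overexpression libraries in red and 1 symbol per replicate. Overexpression points lie right of control points for 35 genes, left of them for Herpud1, and among them for Hspa5 and Atf6.

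**Figure D2:**
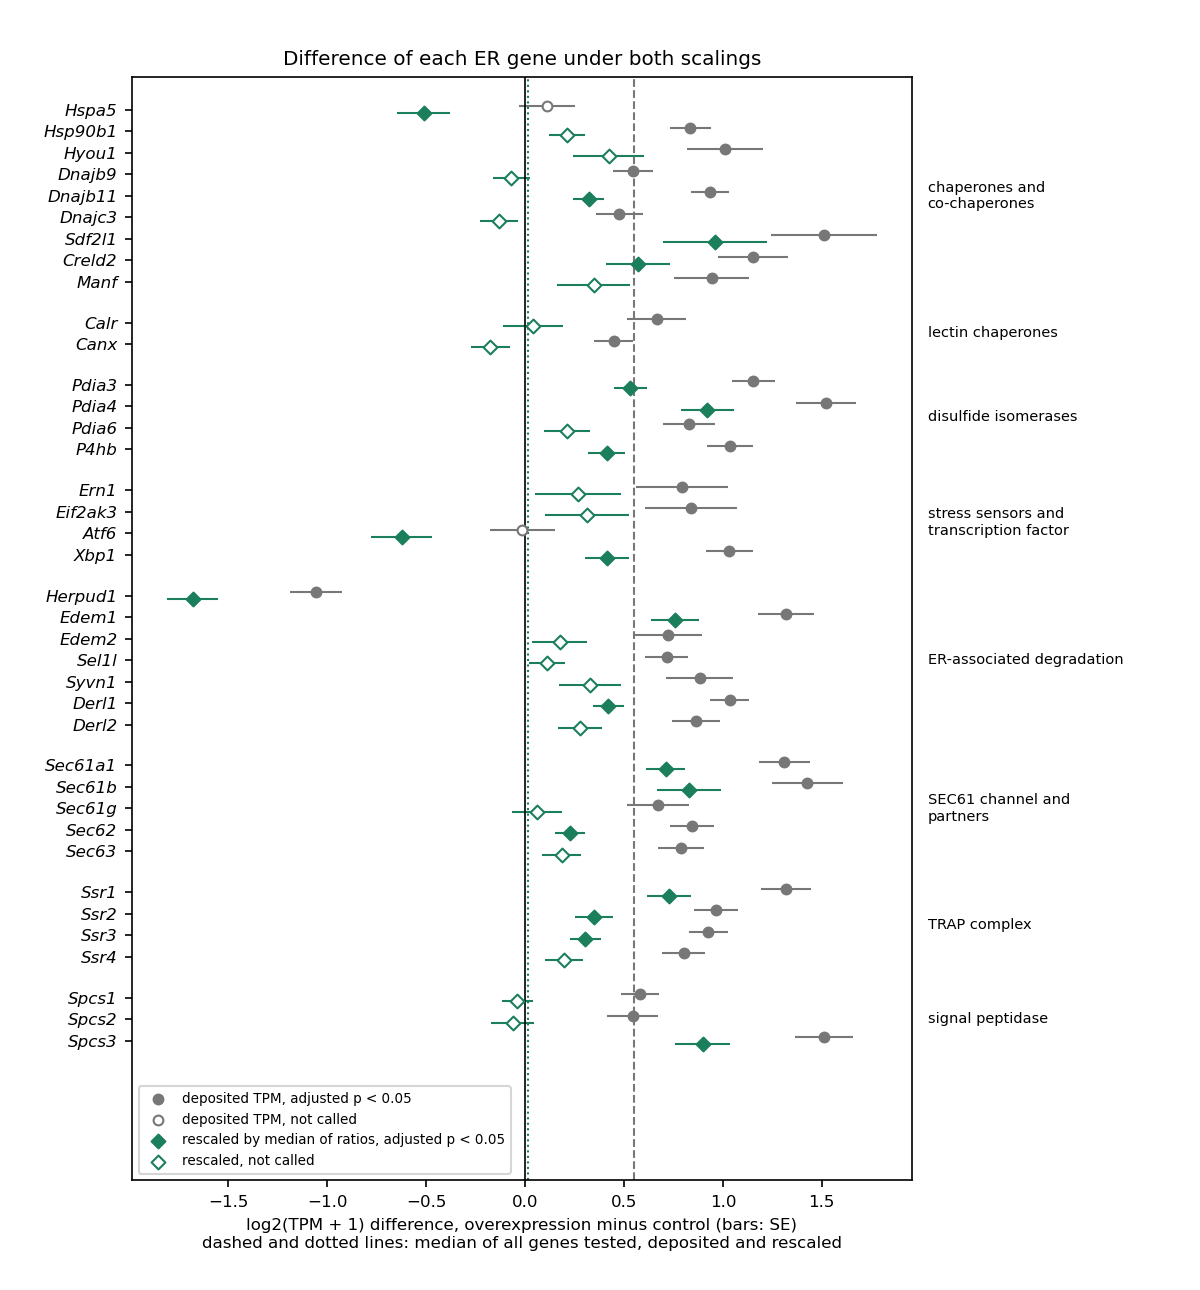
Difference in log2(TPM + 1) between overexpression and control for each ER gene, in deposited TPM (grey) and after rescaling by median of ratios (green), with bars of 1 SE from limma and filled symbols for an adjusted p under 0.05. After rescaling 16 genes stay filled right of 0 and 3 left of it (Hspa5, Atf6 and Herpud1).

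Herpud1 was the ER gene called lower under both scalings. It encodes a stress-inducible ER membrane protein that organises the HRD1 ubiquitin ligase complex of ER-associated degradation, and it lies on chromosome 8 at 94386438 to 94395377, plus strand (GRCm38, GENCODE M21, ENSMUSG00000031770.16). Herpud1 stood at 233, 241 and 239 TPM in control and at 91.9, 134 and 119 TPM in overexpression libraries. The control libraries were nearly equal, and all overexpression libraries lay far below them. On the log2 scale it differed by -1.06 (SE 0.132, limma adjusted p = 0.000222) in TPM and -1.68 (SE 0.127, adjusted p = 4.97e-05) after rescaling. It was the single ER gene of the 38 called lower in deposited TPM, and leaving out any 1 library left that call in place.

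The remaining tested degradation genes were higher in TPM, where 59.0% of all genes were. Edem1, a mannosidase-like protein that marks misfolded glycoproteins for disposal, stood at 5.69, 5.75 and 4.78 TPM in control and at 16.5, 15.3 and 13.2 TPM in overexpression libraries. These groups were well apart, with a log2 difference of 1.32 in TPM, and of 0.76 when rescaled (SE 0.121, limma adjusted p = 0.00157). Derl1, a derlin that forms part of the exit channel, rose 2.09-fold in TPM and by 0.42 (log2) after rescaling. Edem2, Sel1l, Syvn1 and Derl2 were each higher in TPM (log2 differences 0.71 to 0.88), with no call when rescaled (0.11 to 0.33). Sel1l and Syvn1 encode the adaptor and the ubiquitin ligase of the HRD1 complex that Herpud1 binds. In control libraries Herpud1 alone stood above the other 7 genes of this role together, and in overexpression libraries below them. The sum of the 8 genes went from 314 ± 7.46 to 266 ± 24.9 TPM, whereas the sum without Herpud1 went from 76.1 ± 3.48 to 151 ± 12.7 TPM (SD, n = 3 each). Each difference separated the groups completely, with an exact two-sided permutation p of 0.1, the smallest that 3 against 3 allows. Herpud1 was left out after the values had been seen, so the sum without it is a description.

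Hspa5 encodes BiP, the ER member of the HSP70 chaperones and the usual marker of the unfolded protein response, and lies on chromosome 2 at 34771970 to 34777547, plus strand (GRCm38). It stood at 212, 249.6 and 224 TPM in control and at 303, 239 and 207 TPM in overexpression libraries. The groups overlapped, with overexpression replicate 1 the highest and overexpression replicate 3 the lowest of the 6. In TPM the groups differed by 0.11 on the log2 scale (SE 0.140, limma adjusted p = 0.497). After rescaling Hspa5 was lower by 0.51 (log2 difference -0.51, SE 0.132, adjusted p = 0.0146). That call ended without control replicate 2 (adjusted p = 0.0515) or without overexpression replicate 2 (0.0573). Hspa5 was not called under quantile normalization (log2 difference -0.23, limma adjusted p = 0.232) or without mitochondrially encoded genes (-0.17, adjusted p = 0.305).

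Among the other chaperones, 8 of 8 were higher in TPM (59.0% of all genes) and 3 also after rescaling (22.2% of all genes). Hsp90b1, the ER form of HSP90, stood at 145, 161 and 139 TPM in control and at 292, 269 and 237 TPM in overexpression libraries. Its groups were apart under both scalings, but the test called it in TPM alone (log2 difference 0.84, limma adjusted p = 0.000222, and 0.21, adjusted p = 0.0876, after rescaling). Sdf2l1, a small protein that works with BiP and its J-domain partner Dnajb11, stood at 4.26, 4.46 and 4.69 TPM in control and at 23.8, 12.6 and 10.2 TPM in overexpression libraries. All overexpression libraries were above control, and replicate 1 was the highest of them. Its rescaled log2 difference of 0.96 (SE 0.263, adjusted p = 0.0187) was the largest rise among the 38 and lost its call without control replicate 2 (adjusted p = 0.0558). Creld2, an ER stress-inducible protein with EGF-like repeats, stood at 8.83, 8.06 and 9.001 TPM in control and at 25.1, 21.99 and 15.3 TPM in overexpression libraries. These groups did not overlap either, yet its rescaled difference (0.57, adjusted p = 0.0214) lost its call when control replicate 2 (0.0748), or replicate 1 (0.0512) or 2 (0.0634) of the overexpression group, was left out.

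Dnajb11, which hands unfolded clients to BiP, was the third member of this role called after rescaling (log2 difference 0.32, limma adjusted p = 0.0105). Dnajb9 and Dnajc3, further J-domain partners of BiP, had rescaled differences of -0.07 and -0.13 and were not called. Hyou1, which recharges BiP with ATP, and Manf, a secreted factor that also binds BiP, were at 0.42 and 0.35 and were not called, although both were higher in TPM (2.16-fold and 2.03-fold). Without overexpression replicate 3 the rescaled difference of Hyou1 was 0.56 and was called (adjusted p = 0.0445). Summed over the 9 genes of this role, the level went from 518 ± 33.5 to 767 ± 109 TPM in deposited values and from 643 ± 22.4 to 616 ± 81.6 after rescaling (SD, n = 3 each). The latter groups overlapped (exact permutation p = 0.7). Without Hspa5 the rescaled sum went from 359 ± 8.34 to 416 ± 43.0, with no overlap (exact permutation p = 0.1, the smallest possible). Hspa5, the only gene of this role called lower, was left out after the values had been seen. That sum is therefore a description and no independent test.

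The lectin chaperones hold glycoproteins with monoglucosylated sugars while they fold. Both genes were higher in TPM, where 59.0% of all genes were, and neither was called when rescaled. Calr, calreticulin, stood at 174, 203 and 208 TPM in control and at 388, 288 and 263 TPM in overexpression libraries. Canx, its membrane-bound relative calnexin, stood at 141, 145 and 143 TPM in control and at 221, 189 and 179 TPM in overexpression libraries. Both were higher in TPM (log2 differences 0.66 and 0.45, limma adjusted p = 0.00397 and 0.00355), with overexpression replicate 1 the highest. After rescaling the differences were 0.04 (adjusted p = 0.847) and -0.18 (adjusted p = 0.184), and the groups overlapped. Without overexpression replicate 1 Canx was called lower (-0.26, adjusted p = 0.0377).

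Of the disulfide isomerases 4 of 4 were higher in TPM (59.0% of all genes) and 3 of 4 after rescaling (22.2% of all genes). These enzymes make and shuffle the disulfide bonds of secreted proteins. Pdia4 stood at 16.5, 16.1 and 13.1 TPM in control and at 53.4, 46.7 and 37.5 TPM in overexpression libraries. Every overexpression library was more than 2-fold above every control library, and the rescaled log2 difference was 0.92 (SE 0.133, limma adjusted p = 0.000974). Pdia3, which joins calreticulin and calnexin, stood at 79.0, 82.9 and 79.9 TPM in control and at 193, 197 and 155 TPM in overexpression libraries. The control libraries were close together and the groups were apart, with a rescaled difference of 0.53 (adjusted p = 0.00159). P4hb, the founding protein disulfide isomerase and a subunit of collagen prolyl 4-hydroxylase, rose 2.07-fold in TPM and by 0.41 (log2) after rescaling. Pdia6 stood at 58.1, 61.1 and 61.8 TPM in control and at 126, 113 and 88.0 TPM in overexpression libraries. It was apart in TPM and overlapped after rescaling (0.21, adjusted p = 0.178). The summed level of the 4 genes rose from 272 ± 11.4 to 575 ± 79.8 TPM, and from 338 ± 7.81 to 461 ± 47.0 after rescaling (SD, n = 3 each, exact permutation p = 0.1 for each, the smallest possible).

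The sensor gene Atf6 and the transcription factor gene Xbp1 differed in opposite directions once libraries were rescaled. Atf6, whose protein is cut in the Golgi to release a transcription factor, stood at 29.3, 40.1 and 31.5 TPM in control and at 40.8, 30.5 and 28.9 TPM in overexpression libraries. The groups overlapped (log2 difference -0.02, limma adjusted p = 0.938), and after rescaling Atf6 was lower (-0.62, SE 0.155, adjusted p = 0.0124). Xbp1, whose RNA is the target of IRE1, stood at 42.1, 40.8 and 41.8 TPM in control and at 99.96, 86.1 and 73.8 TPM in overexpression libraries. Its control libraries were nearly equal and its groups were apart. The rescaled difference was 0.42 (SE 0.112, adjusted p = 0.0174), and it was not called without control replicate 2 (adjusted p = 0.0666). Gene totals cannot show whether the intron of Xbp1 was removed.

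The kinases of the response were expressed at low levels. Ern1, which encodes IRE1, stood at 2.60, 4.81 and 4.80 TPM in control and at 7.61, 9.47 and 6.02 TPM in overexpression libraries. Eif2ak3, which encodes PERK, stood at 2.88, 4.39 and 4.14 TPM in control and at 9.54, 8.601 and 5.08 TPM in overexpression libraries. In both genes control replicate 1 was the lowest library, and the groups did not overlap in TPM. They were higher in TPM (log2 differences 0.79 and 0.84, limma adjusted p = 0.0149 and 0.0120), a call that ended without overexpression replicate 2 (adjusted p = 0.0636 and 0.0517). After rescaling neither was called (0.27, adjusted p = 0.349, and 0.31, adjusted p = 0.264).

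Of the SEC61 channel and its partners 5 of 5 were higher in TPM, and 3 of 5 after rescaling. Of all tested genes 59.0% and 22.2% were. Sec61a1, the pore, stood at 13.9, 16.2 and 13.4 TPM in control and at 40.1, 40.2 and 32.4 TPM in overexpression libraries. Sec61b stood at 14.5, 12.0 and 13.3 TPM in control and at 44.1, 42.1 and 27.7 TPM in overexpression libraries. In both genes all overexpression libraries lay above all control libraries, and the rescaled differences were 0.71 (SE 0.0992, limma adjusted p = 0.000822) and 0.83 (SE 0.162, adjusted p = 0.00428). Sec61g, the third subunit, stood at 33.1, 31.5 and 24.7 TPM in control and at 47.5, 56.9 and 40.1 TPM in overexpression libraries. Its groups were apart in TPM and mixed after rescaling (0.06, adjusted p = 0.720). Sec62 and Sec63, which help proteins enter after translation, had rescaled differences of 0.23 and 0.18, and the first passed (adjusted p = 0.0446) while the second did not (0.156). The call of Sec62 ended in 5 of 6 fits without 1 library, all but that without overexpression replicate 3 (adjusted p = 0.0607 to 0.135 in the 5).

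The TRAP complex (Ssr1 to Ssr4) sits beside SEC61 and helps some signal sequences open the channel. All 4 genes were higher in TPM (59.0% of all genes), 3 of them also after rescaling (22.2% of all genes). Ssr1 stood at 11.4, 11.5 and 11.7 TPM in control and at 34.4, 30.8 and 25.98 TPM in overexpression libraries. Ssr4, which is X-linked, stood at 21.7, 21.8 and 22.5 TPM in control and at 43.0, 39.6 and 35.1 TPM in overexpression libraries. Both genes had control libraries within a narrow range and no overlap, and their rescaled differences were 0.73 (SE 0.112, limma adjusted p = 0.00136) and 0.20 (SE 0.0977, adjusted p = 0.138). Ssr2 and Ssr3 were at 0.35 and 0.30 (adjusted p = 0.0196 and 0.0141), and both calls ended without control replicate 2 (0.0768 and 0.0615) or control replicate 3 (0.0547 and 0.0625).

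Signal peptidase removes the signal peptide as a protein enters. Its accessory subunit gene Spcs3, on chromosome 8 at 54520433 to 54529998, minus strand (GRCm38), stood at 28.2, 27.4 and 25.2 TPM in control and at 97.8, 75.1 and 65.6 TPM in overexpression libraries. Every overexpression library was more than 2-fold above every control library, and the rescaled log2 difference was 0.90 (SE 0.140, limma adjusted p = 0.00142). Spcs2 stood at 21.9, 23.9 and 24.8 TPM in control and at 38.6, 37.0 and 29.3 TPM in overexpression libraries. Spcs1 went from 76.2 ± 1.56 to 115 ± 11.4 TPM (SD, n = 3 each). Spcs1 and Spcs2 were higher in TPM and lay at -0.04 and -0.06 after rescaling, where neither was called.

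**Figure D3:**
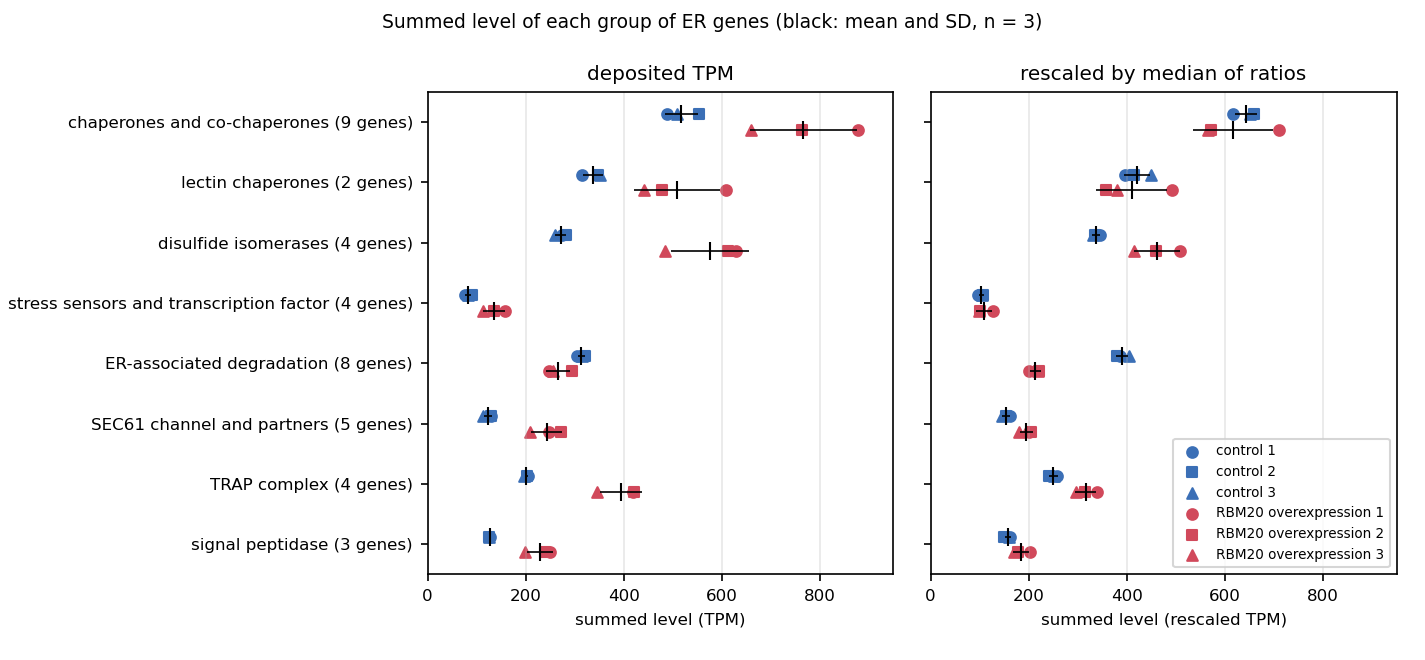
Summed level of the genes of each role in each library, in deposited TPM (left) and after rescaling (right), with black marks for the mean and SD of 3 libraries per group. Under both scalings the overexpression libraries lie above control for the disulfide isomerases, SEC61, TRAP and signal peptidase and below control for ER-associated degradation, whose sum includes Herpud1.

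Ratios between 2 genes of the same library do not depend on how the library is scaled, and 10 were computed after the values had been seen. The ratio of Herpud1 to Hspa5 was 1.10, 0.966 and 1.07 in control libraries and 0.304, 0.560 and 0.578 in overexpression libraries. Pdia4 to Hspa5 stood at 0.0777, 0.0644 and 0.0588 in control and at 0.176, 0.196 and 0.182 in overexpression libraries. Spcs3 to Spcs1 stood at 0.361, 0.365 and 0.333 in control and at 0.859, 0.592 and 0.630 in overexpression libraries. In these 3 pairs the groups were separate. Ssr1 to Ssr4 went from 0.522 ± 0.00379 to 0.772 ± 0.0312 and Xbp1 to Atf6 from 1.26 ± 0.218 to 2.61 ± 0.194 (SD, n = 3 each). Sec61b to Sec61g went from 0.452 ± 0.0804 to 0.787 ± 0.126, a 1.74-fold increase. All 10 ratios separated the groups, each with an exact two-sided permutation p of 0.1, the smallest that 3 against 3 allows, so none can pass 0.05. Each pair joins genes whose differences were already seen to be unlike. The separation of the ratios is therefore a description and no further test.

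**Figure D4:**
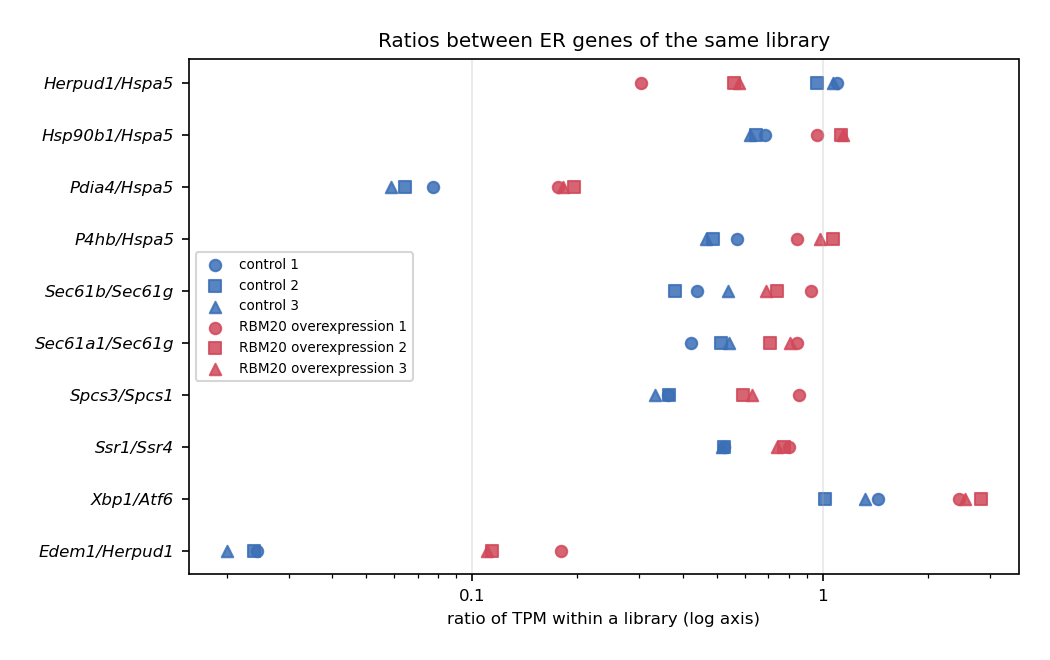
Ratios of TPM between pairs of ER genes of the same library, on a log axis, with control libraries in blue and overexpression libraries in red. The overexpression points lie left of all control points for Herpud1/Hspa5 (0.304 to 0.578 against 0.966 to 1.10) and right of them for the other 9 pairs.

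Genes with and without the printed promoter element can be set side by side. Of the 10 tested genes with ERSE or ERSE-II, 2 were higher and 2 lower after rescaling (Creld2 and Dnajb11, and Hspa5 and Herpud1). These counts lay near the shares over all tested genes, 22.2% higher and 24.0% lower. Their rescaled differences ran from -1.68 to 0.57 with a median of 0.13. Of the 21 tested genes whose promoter held neither, 10 were higher and 0 lower, with a median of 0.28 and a range from -0.07 to 0.96. The 7 genes without a promoter in the table were Atf6, Ssr2, Manf, Spcs3, Hyou1, Derl1 and Sec61a1. This is a description with no test, since the split was made after the values had been seen.

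Overexpression libraries also differed among themselves. Overexpression replicate 1 was the highest of the 3 for 29 of the 38 genes after rescaling (76.3%), against 36.7% of all tested genes, and for 25 in deposited TPM (65.8%, against 31.2% of all). Herpud1 was lowest in that library. The same library had the lowest Rbm20 of the 3 and was the only one of the 6 with transcripts of the Y-linked gene Ddx3y (88.1 TPM) and with Xist near 0 (0.0172 TPM, against 34.4 to 62.6 TPM). The part of Rbm20 level or sex in this order was not tested. Without overexpression replicate 1 the rescaled count was 14 higher and 4 lower, beside 2433 higher and 2789 lower of all 12318 genes tested.

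Markers of other cell types were counted in the same libraries. Of all tested genes 59.0% were higher and 9.09% lower in TPM, and 22.2% were higher and 24.0% lower after rescaling. All 12 macrophage markers were higher in TPM and 10 after rescaling, with a summed level of 387 to 508 TPM in control and 841 to 1461 TPM in overexpression libraries, the highest in replicate 1 of the latter. None of the 12 was at 0. Of 12 fibroblast markers 8 were higher and 2 lower in TPM, and 6 were higher and 4 lower after rescaling. Fibroblast markers together reached 2473 to 3069 TPM under overexpression, against 1418 to 1884 TPM in controls. Rescaled, these sums overlapped (2061 to 2300 under overexpression, 1812 to 2377 in controls). The 6 higher after rescaling were Col1a1, Col1a2, Col3a1, Lum, Mfap5 and Postn, with differences from 0.49 (Lum) to 4.75 (Postn), and Col1a1 went from at most 19.0 to at least 100.1 TPM. The 4 lower were Gsn, Dcn, Dpt and Dpep1, from -0.49 (Dcn) to -1.42 (Dpep1), while Tcf21 (0.32) and Pdgfra (-0.00) were not called. All 10 proliferation genes were higher in TPM and 9 after rescaling, with summed levels of 44.9 to 52.0 TPM in control and 121 to 192 TPM in overexpression libraries. The control mean reached 1 TPM for 3 of these 10, so the other 7 passed the filter through the overexpression group. Of 5 tested atrial markers 2 were higher and 0 lower in TPM, and 1 was higher and 1 lower after rescaling. The atrial light chain gene Myl4 stood at 0.910, 1.20 and 1.46 TPM in control and at 23.6, 10.99 and 31.9 TPM in overexpression libraries, with no overlap, and Bmp10 was at most 0.0442 TPM in all 6. Of 9 tested pericyte and smooth muscle markers 4 were higher and 1 lower in TPM, and 2 were higher and 4 lower after rescaling. The 4 higher in TPM lay below the share over all genes, and the 2 higher after rescaling near it. Endothelial markers had 0 of 10 called in TPM, and 4 called lower and 0 higher after rescaling, where 24.0% of all genes were lower. Lymphocyte and plasma cell markers summed to 5.23 to 7.44 TPM in control and 10.4 to 13.5 TPM in overexpression libraries. Rescaled, these sums overlapped (6.69 to 9.38 in control and 8.95 to 10.1 under overexpression). Only 1 of the 13 markers found passed the filter, Sdc1, with 2.74 to 4.73 TPM in control and 6.58 to 8.20 TPM in overexpression libraries. Sdc1 was called higher in TPM and was not called after rescaling (limma adjusted p = 0.123). The plasma cell gene Jchain stood between 0 and 0.13 TPM in all 6. Of 6 tested neutrophil and mast cell markers 4 were higher and 0 lower in TPM, and 0 were called after rescaling. Csf3r, counted in these 4, averaged 0.462 TPM in controls and passed the filter through the overexpression group. Red blood cell markers had 0 of 5 called under either scaling. The part of any of these cell types in the rise of ER genes was not tested.

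Related genes of the same pathways were counted from 6 further lists, with 141 tested genes. Of these 113 were higher and 5 lower in TPM, and 41 were higher and 20 lower after rescaling, with a rescaled median of 0.11. Over all tested genes 59.0% were higher and 9.09% lower in TPM, and 22.2% were higher and 24.0% lower after rescaling. In the integrated stress response, which PERK and other kinases of eIF2 start, 18 of 24 were higher and 1 lower in TPM, and 11 were higher and 2 lower after rescaling. Phgdh, counted in both the 18 and the 11, averaged 0.775 TPM in controls and 4.36 TPM under overexpression. It therefore passed the filter through the overexpression group, and it is also part of the 113 and the 41. Psat1, an enzyme of serine synthesis, stood at 1.46, 1.35 and 1.54 TPM in control and at 10.9, 14.9 and 11.4 TPM in overexpression libraries (rescaled difference 1.96, limma adjusted p = 3.77e-05). Slc7a5, a transporter of large neutral amino acids, rose 6.63-fold in TPM, and Vldlr, a lipoprotein receptor, fell from 72.2 ± 5.66 to 33.9 ± 1.29 TPM (SD, n = 3 each). Shmt2, the mitochondrial serine hydroxymethyltransferase, was lower only after rescaling (-0.49).

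A further 3 genes of that list were named after their values were seen, because they are its usual readouts. Atf4 stood at 77.4, 76.9 and 62.8 TPM in control and at 191, 176 and 126 TPM in overexpression libraries, and rose (rescaled difference 0.53, limma adjusted p = 0.0150). Its groups did not overlap. Ddit3, the transcription factor CHOP, stood at 16.04, 16.5 and 16.8 TPM in control and at 27.7, 14.8 and 18.7 TPM in overexpression libraries. Its groups overlapped and it was called under neither scaling (0.25, adjusted p = 0.290, and -0.34, adjusted p = 0.231). Ppp1r15a, the stress-induced partner of the eIF2 phosphatase, was higher in TPM (0.63, adjusted p = 0.0101) and lay at 0.02 after rescaling.

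Among 40 other folding enzymes 33 were higher and 2 lower in TPM, and 13 were higher and 5 lower after rescaling. Serpinh1, a chaperone of collagen, stood at 115, 112 and 101 TPM in control and at 488, 396 and 362 TPM in overexpression libraries, apart by more than 3-fold (rescaled difference 1.28, limma adjusted p = 0.000116). Ero1l, the oxidase that recharges the disulfide isomerases, rose 3.34-fold in TPM (rescaled difference 1.04). Cdnf, a relative of Manf, fell from 16.2 ± 0.552 to 7.67 ± 2.18 TPM, and Sil1, which like Hyou1 recharges BiP, fell from 11.1 ± 1.85 to 6.78 ± 1.48 TPM (SD, n = 3 each). Of 14 genes of N-glycan transfer and trimming 13 were higher and 0 lower in TPM, and 6 were higher and 0 lower after rescaling, led by the glucosidase Mogs (1.114) and the catalytic subunit Stt3a (0.94).

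Among 28 other degradation genes 20 were higher and 1 lower in TPM, and 8 were higher and 8 lower after rescaling, near the share over all genes in each direction. Ubxn4, which recruits the extracting ATPase VCP to the ER, rose 2.92-fold in TPM (rescaled difference 0.90), and Edem3, a relative of Edem1, rose 2.62-fold (0.73). Svip, a small protein that binds VCP, fell from 31.2 ± 0.597 to 19.8 ± 2.91 TPM (SD, n = 3 each, rescaled difference -1.24). Erlec1, a lectin of the same pathway, was lower after rescaling only (-0.70). Among 27 other targeting and translocation genes 21 were higher and 1 lower in TPM. After rescaling 1 was higher (Get4, 0.39), and 5 were lower, no more than the share over all genes, led by the ER membrane complex genes Emc9 (-1.82) and Emc2 (-0.93). The signal recognition particle and receptor genes of that list were not called after rescaling. Among 8 ER-anchored regulators 8 were higher in TPM, where 59.0% of all genes were. After rescaling 2 were higher, Creb3l2 (0.72) and Creb3 (0.63), and 0 were lower. The 2 lay near the share over all genes, 22.2% higher.

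**Figure D5:**
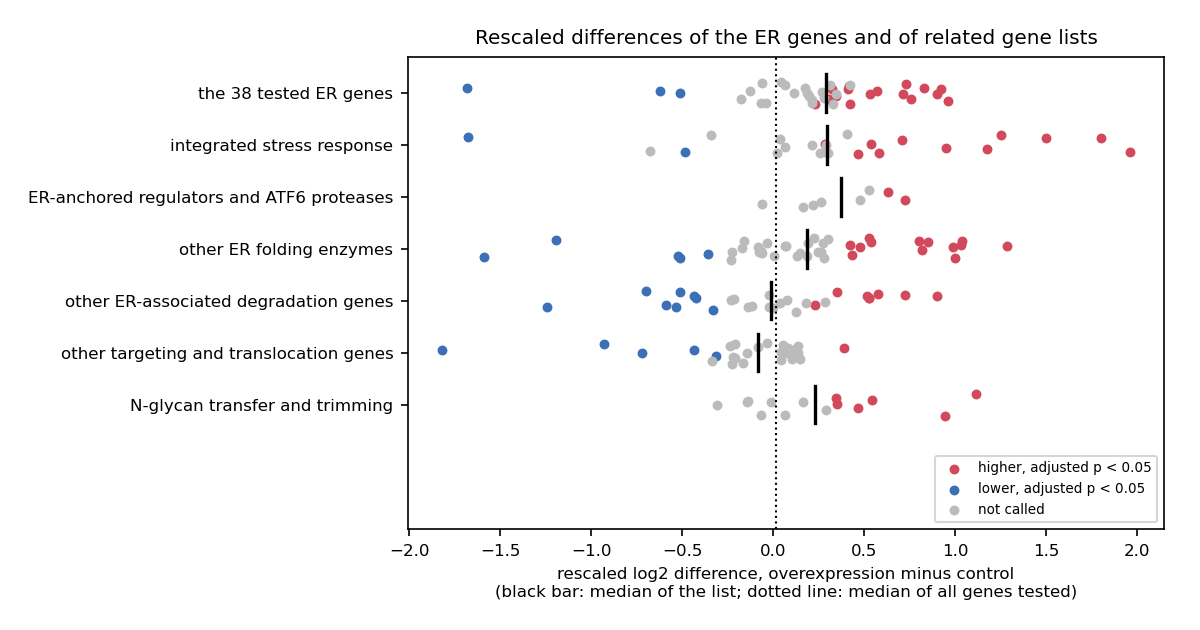
Rescaled log2 difference of each tested gene for the 38 ER genes and 6 related lists, with red for genes called higher, blue for genes called lower, grey for the rest, a black bar for the median of each list and a dotted line for the median of all genes tested. The medians run from -0.09 for other targeting and translocation genes to 0.37 for ER-anchored regulators.

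Of the 39 genes 14 share exon bases with a gene on the opposite strand in GENCODE M21, among them Spcs3, Sec61a1, Sec62, Pdia3, Pdia6 and Eif2ak3. The use of strand in counting was not given in the sources used here, so reads of such pairs cannot be told apart. Herpud1, Hspa5, Atf6, Xbp1, Edem1, Sec61b, Sec61g and Ssr1 had no exon overlap with another gene.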

How the data were processed

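Left ventricles of mice gave polyadenylated RNA that was sequenced, per the labels' protocols, with a TruSeq kit as strand-specific read pairs. The authors deposited 1 table of TPM per gene symbol, with 31273 genes. STAR-Fusion 1.11.0, GATK 4.2.6.1, edgeR 3.40.2, featureCounts 2.0.3 and the build mm8 are named, with no role, per the submitters' processing notes. An aligner and an annotation were not given in the sources used here.

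Each column was matched to its sample by the number shared with the sample title and by the genotype label. The 12404 genes whose mean reached 1 TPM were compared as log2(TPM + 1) by the moderated test of limma 3.58.1 (R 4.3.3, prior variance with a trend, two-sided). P-values were adjusted over all of these genes by Benjamini-Hochberg, with 0.05 as threshold. On this scale the change of low genes is understated, and folds are ratios of mean TPM. The fit was repeated with libraries scaled by median of ratios to the geometric mean of genes above 0 in every library. This is called rescaled, and its factors ran from 0.782 to 0.841 in control and from 1.16 to 1.33 in overexpression libraries. Nothing but the title numbers marks the samples as separate animals, so the p-values cover the spread among these libraries, which may be technical. The 39 genes and the related lists were chosen with earlier results of these data known. All 39 genes are named. Values in each library are given for genes called in either fit with a rescaled difference of at least 0.5, for the stress sensors and Xbp1, and for the highest and lowest gene of each role. Of each related list, the 2 largest called rises and falls are named. Ratios between genes, sums without 1 gene and the order of the overexpression libraries were added after the values had been seen.

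Read depth was estimated from the steps of low TPM values times exon length, whose smallest step is 1 read. Of genes with at most 10 reads, 55.6% to 66.6% lay within 0.05 of a whole read, against 10.0% for values without steps. Promoters are those of RefSeq (GRCm38.p6), and gene positions those of GENCODE M21 (GRCm38). The scripts were tested on simulated data. With 200 genes changed 2-fold or 4-fold, both fits recovered 98% to 100%, with 9 false calls in TPM and 11 after rescaling. With only mitochondrially encoded RNA changed, to 0.6 of its level, 2057 other genes were called in TPM and 1 after rescaling, of 11884 tested. The part of mitochondrially encoded RNA in the differences between the real libraries was not tested. The alternatives were other pseudocounts, filters, scalings and limma settings, and each library left out. Figures were drawn with Python 3.11.15 and matplotlib 3.10.9. Splicing was not analysed here.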

Additional observations from a re-analysis of the deposited data

How the results depend on the processing

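Quantile normalization in place of deposited TPM gave 18 ER genes higher and 2 lower, and 49 genes of the related lists higher and 17 lower. Of all 12404 genes tested, 2963 were higher and 2816 lower under that setting. Without mitochondrially encoded genes 28 ER genes were higher and 9 genes of the related lists lower. Of all 13420 genes tested that way, 5382 were higher and 1796 lower. Rescaling by median of ratios gave folds of summed level of 1.0203 for all 39 genes, 0.959 for chaperones, 0.976 for lectin chaperones, 1.37 for disulfide isomerases, 1.06 for sensors, 0.547 for degradation, 1.27 for SEC61, 1.26 for TRAP and 1.17 for signal peptidase, against 1.58, 1.48, 1.51, 2.12, 1.63, 0.847, 1.96, 1.96 and 1.81 in deposited TPM. It turned the log2 difference of Hspa5 to -0.51, Dnajb9 to -0.0704, Dnajc3 to -0.13 (-0.0382 under quantile normalization), Canx to -0.18, Spcs1 to -0.0387 and Spcs2 to -0.0627. With 1 library left out, 10 to 17 ER genes were higher after rescaling, beside 2007 to 2647 of all genes tested. Pseudocounts of 0.1 and 5, the filters and the other limma settings kept each count of called ER genes within 1 of its value. With no filter Derl3 was tested as well. With the search limited to the 250 bases before the start, ERSE-II was found in 1 of the ER genes in place of 2. The look at retention signals of the proteins was not run. No paired analysis was possible because the sample titles of the groups share no number. Counting error was not modelled, and groups of 3 limit every test.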
